A study of Homo sapiens with 4 samples.

Results

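Nuclear pore and nuclear transport receptor genes were followed in slow-cycling cells of MDA-MB-231, an established human line derived from triple-negative breast cancer. They were chosen by name: every gene annotated as protein coding whose symbol starts with NUP, KPNA, KPNB, XPO, IPO or TNPO followed by a number, XPOT included. The rule found 46 of the 58735 genes in the deposited count table. Of these, 43 reached a mean of 1 CPM (reads per 1000000 counted reads) over the 4 libraries and were tested. The other 3, NUP210L, KPNA7 and IPO4, stayed below that level.

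All 4 groups came from MDA-MB-231 cells transduced with TetOn-H2BeGFP, a histone H2B-eGFP fusion that is made when doxycycline is given. Doxycycline was given at 5 μg/ml for 3 days, the cells were stained with a Claret and a Violet dye, and the labels were chased for 12 days, so that cells that divide often lose them. The top 1% of label-retaining cells were sorted as slow-cycling cells: Claret+, H2B-eGFP+ (here eGFP) and Violet+. The Bulk control carried the same transgene and was sorted with no fluorescence gate, so it can itself hold slow-cycling cells. The labels do not say whether the sorts came from 1 culture or from a cloned line. Each group was 1 library, with no replicates, so each test below compares the reads of 2 libraries and not the conditions, and variation between cultures was not measured. The comparisons with Bulk all share the same Bulk library. The groups follow the sample titles, and the treatment field of every sample names a different sort. Under that field, the library titled Bulk is Claret+, the library titled Claret+ is eGFP+, the library titled H2B-eGFP+ is Violet+ and the library titled Violet+ is un-gated. Every direction below therefore refers to libraries by their titles.

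The nuclear pore is a large ring of nucleoporins set into the nuclear envelope. Y complexes form its outer rings on both faces, an inner ring holds the centre, and nucleoporins rich in phenylalanine-glycine (FG) repeats fill the channel. Cargo crosses the channel on receptors: importins bring proteins with a nuclear localization signal in, exportins carry proteins and RNAs out, and the small GTPase Ran sets the direction. The envelope and its pores are taken apart and rebuilt at each mitosis, and new pores are also inserted in interphase before division. The genes were grouped by these roles: 11 scaffold genes (6 of the Y complex and 5 of the inner ring), 11 other pore genes, 18 importins and 6 exportins.

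Among the genes chosen by name, all 11 of the scaffold, all but 1 of the importins tested and all but 1 of the exportins had a lower share of reads in all 3 slow-cycling libraries than in Bulk. KPNA2, an importin alpha that binds the localization signal of its cargo, was lowest relative to Bulk, and the exportin of transfer RNA, XPOT, went the other way. The promoters of 4 genes are shown as examples picked by their values. KPNA2, the inner-ring scaffold gene NUP205 and the main protein exportin XPO1 were lower in the slow-cycling libraries, and XPOT was higher. Each window runs from 250 bases before to 50 bases after the transcription start in RefSeq (GRCh38.p14) and is written 5′ to 3′ on the gene's strand. Capitals mark matches, on either strand, to CCAAT (the box bound by NF-Y) or to TTTGAA or TTCGAA (letters of the cell-cycle homology region, CHR). The windows are chr17:68035485-68035784 (plus strand) for KPNA2, chr7:135557667-135557966 (plus strand) for NUP205, chr2:61538307-61538606 (minus strand) for XPO1 and chr12:64404142-64404441 (plus strand) for XPOT. RefSeq has 2 windows for XPO1, and the one nearest the start in the deposited table is shown. The RefSeq start lies 216 bases from that start for KPNA2, 2 for NUP205, 270 for XPO1 and 42 for XPOT.
KPNA2: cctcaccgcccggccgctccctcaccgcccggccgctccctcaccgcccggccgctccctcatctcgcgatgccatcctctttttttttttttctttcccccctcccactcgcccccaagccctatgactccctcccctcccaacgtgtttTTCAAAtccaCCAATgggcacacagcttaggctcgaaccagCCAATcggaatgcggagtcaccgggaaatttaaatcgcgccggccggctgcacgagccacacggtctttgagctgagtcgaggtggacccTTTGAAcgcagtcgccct
NUP205: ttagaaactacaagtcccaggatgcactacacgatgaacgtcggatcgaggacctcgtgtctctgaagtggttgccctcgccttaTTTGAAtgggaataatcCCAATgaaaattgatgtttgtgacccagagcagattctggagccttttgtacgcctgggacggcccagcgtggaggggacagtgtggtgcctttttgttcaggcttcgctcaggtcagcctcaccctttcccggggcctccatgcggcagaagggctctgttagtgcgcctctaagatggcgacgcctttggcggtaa
XPO1: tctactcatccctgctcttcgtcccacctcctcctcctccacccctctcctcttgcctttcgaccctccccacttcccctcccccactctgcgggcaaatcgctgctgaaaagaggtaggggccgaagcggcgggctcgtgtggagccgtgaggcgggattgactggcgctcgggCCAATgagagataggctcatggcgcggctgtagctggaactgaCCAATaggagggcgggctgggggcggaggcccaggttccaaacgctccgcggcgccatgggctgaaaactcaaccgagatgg
XPOT: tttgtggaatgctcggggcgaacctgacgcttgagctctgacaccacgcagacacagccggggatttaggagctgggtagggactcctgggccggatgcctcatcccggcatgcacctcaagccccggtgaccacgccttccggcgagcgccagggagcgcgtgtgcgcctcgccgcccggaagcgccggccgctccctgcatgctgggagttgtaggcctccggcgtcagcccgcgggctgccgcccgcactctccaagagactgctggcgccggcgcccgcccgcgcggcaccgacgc

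The KPNA2 window held 2 CCAAT matches and 2 CHR matches, of which TTCAAA at position 152 is the CHR read on the other strand. The NUP205 window held 1 of each, the XPO1 window 2 CCAAT matches, and the XPOT window no match to any motif searched. RefSeq promoters were found for 40 of the 46 genes, in 52 windows. CCAAT was present in 48.1% of these windows and in 34.6% of all 35116 promoter windows, and a CHR match in 23.1% against 16.4%. TTTCCCGC, TTTCGCGC, TTTGCCGC or TTTGGCGC (E2F) was found in windows of 3 genes, IPO11, IPO7 and NUP155 (5.77% of the windows against 3.31% of all). The NRF1 motif was found in windows of 7 genes (13.5% of the windows against 5.78% of all). TGATGNAA (a CHOP and ATF4 composite) was found for NUP153 only (1.92% against 3.62%). The printed windows do not stand for their classes. NUP188, lowered more than NUP205, had a window but no match to any of these motifs. Of genes nearer to Bulk, NUP88 and NUP62CL held CCAAT and IPO7 a CHR match. Both strands were searched for each motif, no match printed overlaps another, and matches are letters in a window, not binding sites.

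The libraries held 15508179 to 16976909 counted reads. The 46 genes took 0.717% of the Bulk reads against 0.417% (Claret), 0.415% (eGFP) and 0.426% (Violet). Vimentin (VIM), CD44 and AXL, high in this line, had 5303 to 18488 reads in every library. Of the genes low in this line, ESR1, PGR and CDH1 had 0 to 7 reads and EPCAM 28 to 61. Of 8 markers of leukocytes, endothelium and fibroblasts, PTPRC, CD3E, CD68 and COL1A2 had 0 to 4 reads in every library. VWF rose from 4 reads in Bulk to between 19 and 24 and PDGFRB from 201 to between 421 and 431, while PECAM1 had 54 to 87 reads and COL1A1 284 to 363. MKI67, a marker of proliferating cells, had 6778 reads in Bulk against 995 (Claret), 689 (eGFP) and 915 (Violet). The part of these markers and of proliferation in the results below was not tested. In such bulk libraries, fewer cells of a kind and less RNA per cell cannot be told apart.

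A gene was called when the adjusted p of the exact conditional binomial test was under 0.05 and its log2 ratio of scaled reads reached a set size, 2-fold or, in a second count, 1.5-fold. Where 4 read counts are given in a row, they are those of Bulk, Claret, eGFP and Violet, and 3 ratios in a row are those of Claret, eGFP and Violet to Bulk. At 2-fold, 13 of the 43 genes were lower than in Bulk in Claret, where 6.68% of all 14585 genes tested were lower. In eGFP 15 were lower (7.63% of all genes) and in Violet 15 (7.01%). None was called higher at 2-fold in any of the 3, while 11.3%, 11.9% and 11.3% of all genes were. At 1.5-fold, 29 of the 43 were lower in each of Claret, eGFP and Violet, against 16.6%, 17.8% and 16.9% of all genes. The 2 called higher at 1.5-fold in each were XPOT and KPNA5, against 19.8%, 20.5% and 20.4% of all genes. The median log2 ratios to Bulk were -0.82, -0.77 and -0.78 (Claret, eGFP, Violet), beside -0.01, -0.01 and 0.00 for all genes tested. Scaled reads were below Bulk (a negative log2 ratio) in all 3 slow-cycling libraries for 40 of the 43 (93.0%) and for 43.0% of all genes tested. The exceptions among the 43 were XPOT, KPNA5 and NUP62CL. With groups from the treatment field in place of the titles, none was lower at 2-fold in any comparison and 15 were higher in Claret. Of all genes, 7.01% were then higher in Claret, and 11.3%, 0.576% and 0.727% lower in Claret, eGFP and Violet. These directions follow from the library titled Bulk being Claret+ under that field.

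**Figure D1:**
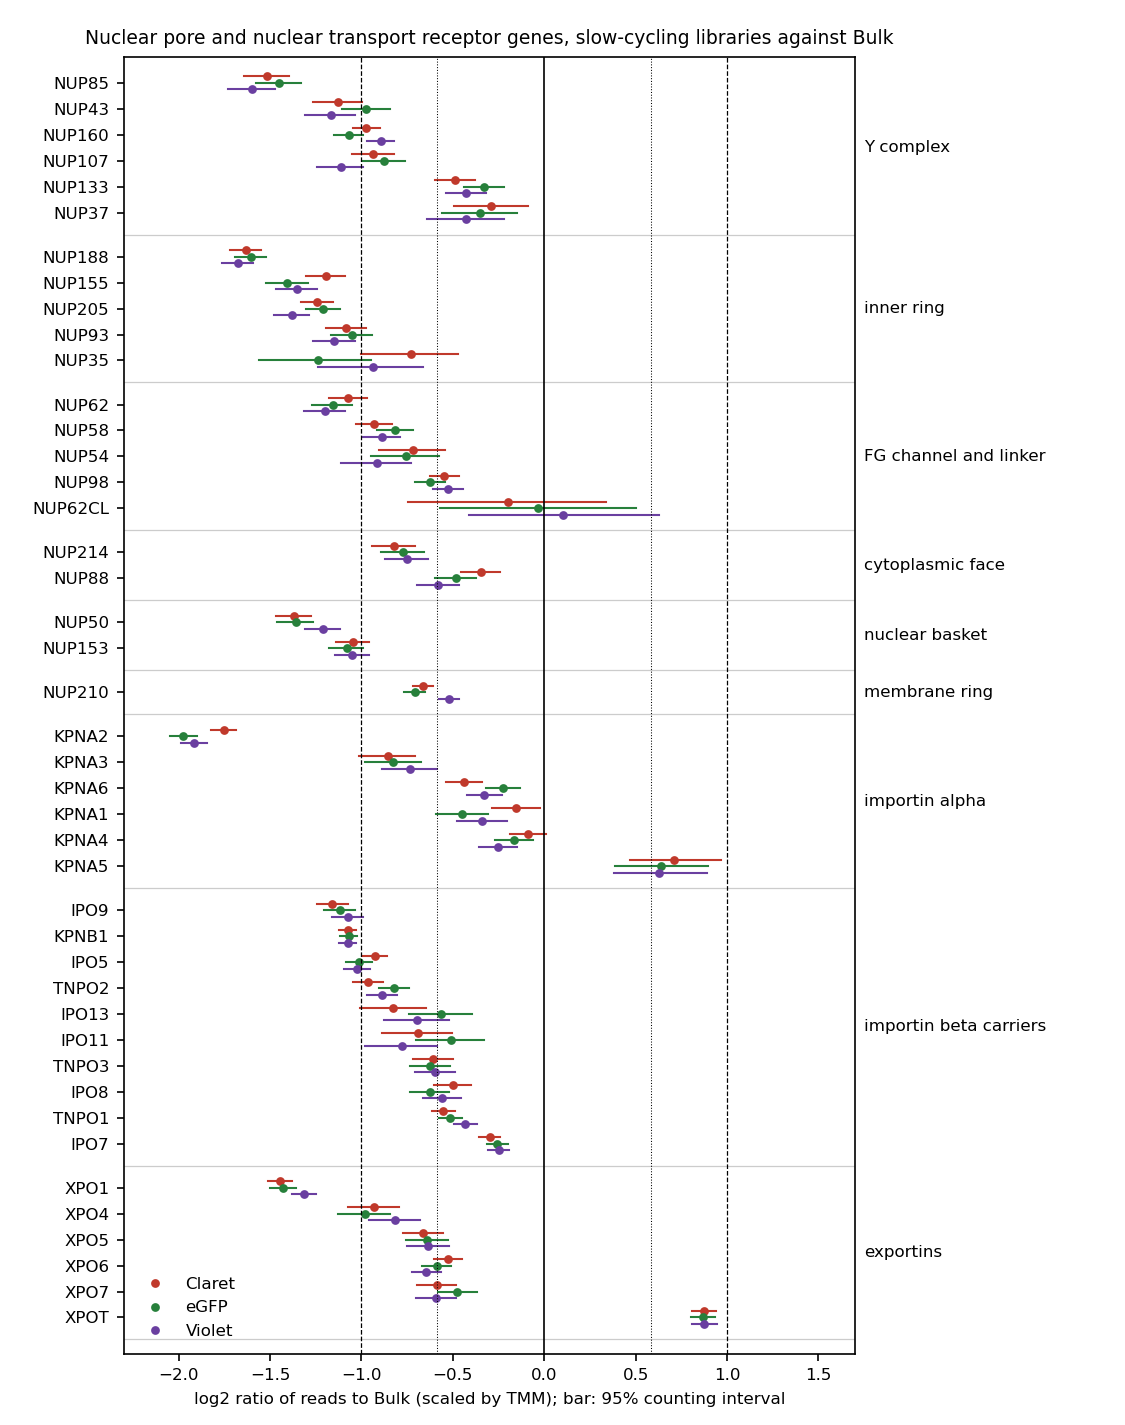
Log2 ratio of scaled reads in the Claret, eGFP and Violet libraries to Bulk for the 43 genes tested, by role; 1 point is 1 library and the bar is its 95% counting interval. Dashed lines mark 2-fold and dotted lines 1.5-fold. Points of the inner ring lie between -1.68 and -0.73, KPNA2 lies farthest left and XPOT and KPNA5 are the only genes to the right of 0 in all 3 libraries.

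Of the Y complex, the outer scaffold of the pore, the 6 genes chosen by name were all below Bulk. Of these, 4 (NUP85, NUP43, NUP160 and NUP107) were called lower at 1.5-fold in all 3 slow-cycling libraries, against 12.8% of all genes tested. NUP85 (chr17:75205659-75235758, GRCh38) had 1945 reads in Bulk against 730 (Claret), 716 (eGFP) and 643 (Violet). It was high in Bulk only, and the log2 ratios were -1.52 (95% interval -1.64 to -1.40), -1.45 (-1.58 to -1.33) and -1.60 (-1.73 to -1.47), or 2.73- to 3.03-fold lower. NUP43, a beta-propeller subunit of the complex, had 1408 reads in Bulk against 693, 722 and 627. It passed 2-fold in Claret and Violet and reached -0.97 in eGFP. NUP160 had the highest FPKM (reads scaled to gene length and library depth) of these 6, 31.5 in Bulk and 14.7 to 16.5 in the slow-cycling libraries. Its reads were 4204 in Bulk, then 2305, 2017 and 2269, and it passed 2-fold in eGFP alone (-1.07, with -0.97 in Claret and -0.89 in Violet). NUP107 had 1648 reads in Bulk, then 927, 904 and 763, and passed 2-fold in Violet alone (-1.11). NUP133 and NUP37 stayed closer to Bulk, at -0.49 to -0.33 and -0.43 to -0.29, and neither was called at 1.5-fold. The 6 genes were uneven: NUP85 took 21.2% of their summed FPKM in Bulk and 13.6% to 14.5% in the slow-cycling libraries, and NUP133 took 14.6% and 20.1% to 21.8%.

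The inner ring, which joins the outer rings to the channel and the membrane, was lower throughout. All 5 genes were called lower at 1.5-fold in all 3 libraries, and all but NUP35 at 2-fold in all 3. The shares of all genes tested were 12.8% and 4.92%. NUP188 and NUP205 are large, related solenoid proteins of the ring. NUP188 (chr9:128947699-129007096) had 4477 reads in Bulk against 1554 (Claret), 1480 (eGFP) and 1403 (Violet), and was 3.04- to 3.2-fold lower. NUP205 (chr7:135557919-135648757), whose promoter is printed above, had 3218, 1464, 1402 and 1239 reads and was 2.31- to 2.60-fold lower. In both, the slow-cycling libraries lay close together and far below Bulk. NUP155, which contacts the membrane side of the pore, had 2264 reads in Bulk against 1063, 859 and 888, with log2 ratios of -1.20, -1.41 and -1.35. NUP93, the linker on which the channel nucleoporins are anchored, had 1995, 1012, 968 and 901 reads and log2 ratios of -1.08, -1.05 and -1.15. NUP35 (NUP53), a small membrane-binding subunit, was the least abundant with 302 reads in Bulk against 195, 128 and 157. Its ratio in eGFP was -1.24 (-1.56 to -0.95), and -0.73 and -0.94 in Claret and Violet.

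**Figure D2:**
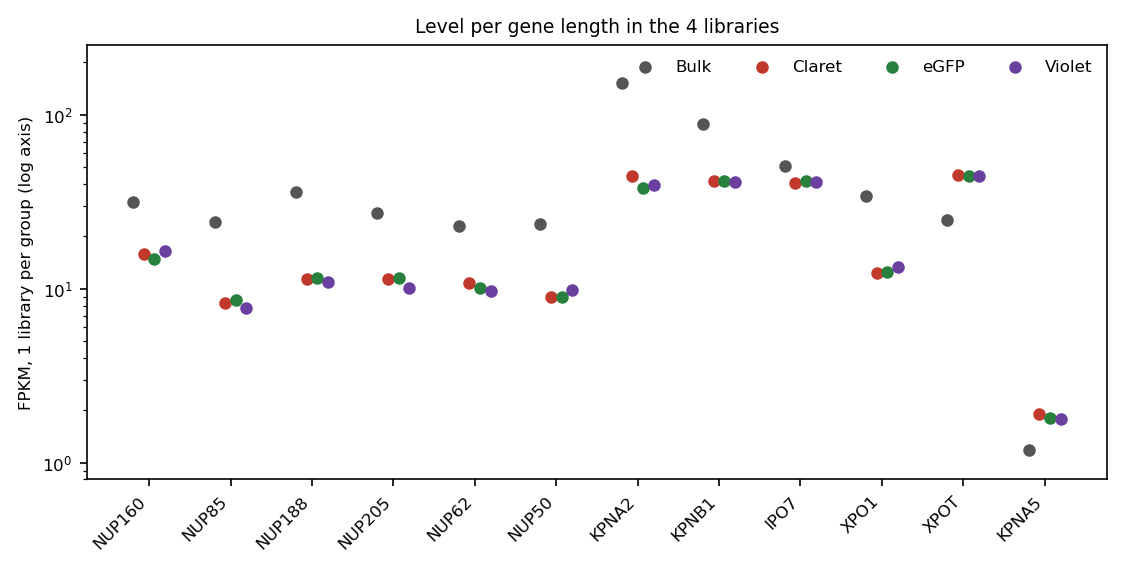
FPKM, a level per gene length, on a log axis for 12 genes in the 4 libraries; each point is 1 library. The 3 slow-cycling points lie together below Bulk for every gene but XPOT and KPNA5, and KPNA2 is highest in Bulk at 152.

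Pore genes outside the scaffold were lower by less as a class, with a median log2 ratio of -0.77, -0.76 and -0.82 for the 10 tested. The genes of the nuclear basket among them were an exception, with medians of -1.21, -1.22 and -1.13. NUP62, the FG nucleoporin of the central channel, had 2150 reads in Bulk against 1100, 970 and 938. It was called lower at 2-fold in all 3 (-1.07, -1.16 and -1.20). Its channel partners NUP58 and NUP54 were lower at 1.5-fold in all 3, at -0.93 to -0.72. NUP98, a gene whose product is cleaved into the FG protein NUP98 and the Y complex subunit NUP96, had 2961, 2182, 1933 and 2060 reads and was called at 1.5-fold only in eGFP (-0.63). NUP62CL, a relative of NUP62, had 58 to 67 reads in every library, and its intervals spanned 0 in all 3. On the cytoplasmic face, NUP214, which with NUP88 docks export complexes, was lower at 1.5-fold in all 3 (-0.82, -0.77 and -0.75). NUP88 had the higher FPKM of the pair and 1575, 1333, 1134 and 1055 reads in Bulk, Claret, eGFP and Violet. It was not called, at -0.35 to -0.58.

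NUP50 and NUP153, the genes of the nuclear basket chosen by name, were called lower at 2-fold in all 3 libraries. TPR, which forms the filaments of the basket and is outside the naming rule, was called at neither size (-0.58, -0.55 and -0.43). NUP50, a mobile nucleoporin that helps release cargo from importin alpha, had 3036 reads in Bulk against 1262 (Claret), 1190 (eGFP) and 1314 (Violet), 2.31- to 2.59-fold lower. NUP153, which anchors the basket, had 2905, 1514, 1382 and 1406 reads, with log2 ratios of -1.05, -1.08 and -1.05. Both were high in Bulk alone. The membrane-spanning NUP210 had the highest FPKM of all pore genes chosen, 53.2 in Bulk and 31.9 to 36.0 in the others. Its 6765 reads in Bulk stood against 4594, 4169 and 4731, and it was called at 1.5-fold in Claret and eGFP and not in Violet (-0.52). Its relative NUP210L had 4 to 11 reads and was not tested.

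Importin alpha adaptors bind the localization signal and hand it to KPNB1. The 7 genes did not move as a group: 1 was lower at 2-fold, 1 more at 1.5-fold, 1 was higher at 1.5-fold, 3 passed neither size, and 1 was not tested. Of all genes tested, 4.92% were lower at 2-fold in all 3 libraries, and 12.8% lower and 15.4% higher at 1.5-fold. The 1 higher of 6 tested (16.7%) is near that last share. KPNA2 (chr17:68035519-68046842), the highest in Bulk of the 46 genes by FPKM, had 7431 reads there against 2371 (Claret), 1905 (eGFP) and 1976 (Violet). Bulk stood far above the rest, and KPNA2 was 3.37-, 3.93- and 3.77-fold lower, with log2 ratios of -1.75 (-1.82 to -1.69), -1.97 (-2.05 to -1.90) and -1.91 (-1.99 to -1.84). KPNA3 had 953 reads in Bulk against 566, 541 and 574 and was called at 1.5-fold in all 3 (-0.86, -0.83 and -0.73). KPNA4, of the same subfamily as KPNA3, had 1644, 1665, 1478 and 1383 reads, and its ratio in Claret, -0.09 (-0.19 to 0.01), did not pass the exact binomial test (adjusted p = 0.111). KPNA1 had 962, 931, 710 and 762 reads, with ratios of -0.15, -0.45 and -0.34. KPNA6, of the subfamily of KPNA1, had 1993, 1583, 1717 and 1591 reads and ratios of -0.44, -0.23 and -0.33.

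KPNA5, also of the KPNA1 subfamily, was the only importin above Bulk. It had 210 reads in Bulk against 371 (Claret), 330 (eGFP) and 327 (Violet), all 3 slow-cycling libraries above Bulk. The ratios were 0.71 (0.47 to 0.97), 0.64 (0.39 to 0.90) and 0.63 (0.38 to 0.89), or 1.55- to 1.64-fold higher, with adjusted p of 1.55e-08, 8.62e-07 and 1.28e-06 by the exact binomial test. On the scale log2(FPKM + 1), which understates low genes, the ratios were 0.42, 0.36 and 0.35, under 1.5-fold. KPNA7 had 2, 0, 0 and 1 reads in Bulk, Claret, eGFP and Violet, at or under the 3 reads that a count of 0 allows. By summed FPKM, KPNA2 made up 75.0% of importin alpha in Bulk against 53.4% (Claret), 49.4% (eGFP) and 50.9% (Violet). The share of KPNA6 was 8.45% in Bulk and 15%, 18.7% and 17.2%, and that of KPNA4 5.54% and 12.5%, 12.8% and 11.9%. Importin alpha as a whole summed to 37.8% to 41.0% of its Bulk FPKM, and without KPNA2 to 74.7% to 76.6%.

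**Figure D3:**
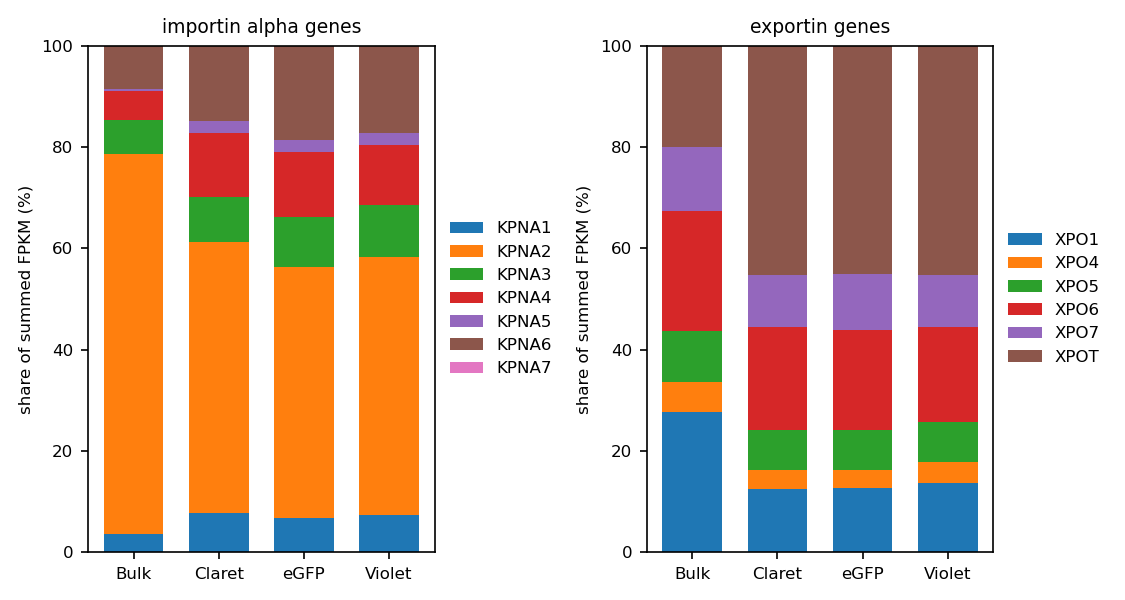
Percent share of each gene in the summed FPKM of the 7 importin alpha genes (left) and the 6 exportin genes (right), by library. All were chosen by name, which leaves out the exportin CSE1L. KPNA2 takes 75.0% in Bulk and 49.4% to 53.4% in the slow-cycling libraries, and XPOT takes 20.1% of the exportins in Bulk and 45.2% to 45.4% in the others.

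KPNB1, importin beta, carries the importin alpha complex through the channel and had the highest mean FPKM of the beta carriers, 89.0 in Bulk and 41.0 to 41.6 in the others, where in Violet IPO7 was as high (41.2). Its reads were 10615 in Bulk against 5420 (Claret), 5094 (eGFP) and 5049 (Violet). The slow-cycling libraries gave nearly the same ratio, -1.08 (-1.12 to -1.03), -1.07 (-1.12 to -1.02) and -1.08 (-1.12 to -1.03), and all were called at 2-fold. Summed importin alpha FPKM per KPNB1 FPKM was 2.28 in Bulk, and 2.001 (Claret), 1.85 (eGFP) and 1.88 (Violet).

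Among carriers that bind cargo without an adaptor, IPO9, a carrier of histones, was called at 2-fold in all 3 libraries. It had 3499 reads in Bulk against 1686, 1622 and 1666 (-1.16, -1.12 and -1.07). IPO5, which carries ribosomal proteins and histones, had 4884, 2764, 2440 and 2406 reads. Its ratios of -0.93, -1.01 and -1.02 lay at the 2-fold line and passed it in eGFP and Violet. With scaling by library size those were -0.99 and -0.97, below 2-fold. TNPO2, a transportin for RNA-binding proteins, and TNPO3, the carrier of serine- and arginine-rich splicing factors, were lower at 1.5-fold in all 3 (-0.96 to -0.82 and -0.62 to -0.60). IPO11 and IPO13 passed 1.5-fold in Claret and Violet, at -0.69 and -0.78 and at -0.82 and -0.70, and IPO8 in eGFP, at -0.63. TNPO1 (-0.55 to -0.43) and IPO7 did not pass that size. IPO7, a carrier of ribosomal proteins and signalling factors, was nearest to Bulk at -0.30, -0.26 and -0.25, and its FPKM of 40.4 to 41.4 in the slow-cycling libraries was close to that of KPNB1. IPO4 had 24, 4, 9 and 8 reads in Bulk, Claret, eGFP and Violet and was not tested. Of its exon bases, 69.3% overlap a gene on the same strand, mostly the readthrough gene AL136295.4. How reads in such overlaps were counted is not given in the sources used here, and the IPO4 counts are uncertain for that reason.

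XPO1 (CRM1), the exportin of proteins with a leucine-rich export signal, was the only one of the 6 XPO genes called lower at 2-fold. It had 6219 reads in Bulk against 2458 (Claret), 2328 (eGFP) and 2508 (Violet). Bulk stood apart from the rest, and the log2 ratios were -1.44 (-1.51 to -1.38), -1.43 (-1.498 to -1.36) and -1.31 (-1.38 to -1.25), or 2.48- to 2.72-fold lower. XPO4 and XPO5, the exportin of precursor microRNAs, were lower at 1.5-fold in all 3, at -0.98 to -0.82 and -0.66 to -0.63. XPO4 lay close to the 2-fold line in eGFP (-0.98). XPO6, the actin exportin, passed 1.5-fold in eGFP and Violet, and XPO7 in Claret and Violet, with ratios of -0.65 to -0.47 for both.

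XPOT (chr12:64404350-64451127), which exports mature transfer RNAs, was the gene farthest above Bulk among the 43 tested. Its reads were 2838 in Bulk against 5605 (Claret), 5224 (eGFP) and 5226 (Violet). All 3 slow-cycling libraries were higher, by 1.83-, 1.83- and 1.84-fold, with log2 ratios of 0.88 (0.81 to 0.94), 0.87 (0.80 to 0.94) and 0.88 (0.81 to 0.94). The make-up by FPKM of the exportins chosen by name differed accordingly. XPO1 had the largest share of their summed FPKM in Bulk, 27.7%, and 12.5%, 12.7% and 13.7% in the slow-cycling libraries. XPOT took 20.1% in Bulk and, as the largest share there, 45.4%, 45.2% and 45.4%. The exportins chosen by name together summed to 78.9% to 80.1% of their Bulk FPKM, and without XPOT to 54.0% to 54.8%. These shares and sums leave out CSE1L, the exportin of importin alpha, which is outside the naming rule. Its FPKM was 101.1 in Bulk, above the 34.2 of XPO1, and 30.1 to 34.8 in the slow-cycling libraries. With CSE1L counted, XPO1 would not have the largest share in Bulk. Of the 31-base words in XPOT transcripts, 20.5% also occur in other genes, most of all in AC073136.1 (10.9%), whose reads are not given here. The pseudogene XPOTP1 had 8 reads in Bulk against 24, 19 and 20. For KPNA2 the share of words found elsewhere was 25.5%, and the locus that shares most of them, ARHGAP27P1-BPTFP1-KPNA2P3, had 49, 63, 44 and 73 reads. For NUP62 it was 23.0%, and 21.1% of its exon bases overlap other genes on either strand. NUP88, IPO7 and IPO11 had 22.2%, 22.0% and 21.1% of words elsewhere. How the counting treated reads that match several genes is not given in the sources used here.

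Set side by side, the scaffold had the lowest median log2 ratio, -1.08 (Claret), -1.07 (eGFP) and -1.15 (Violet), with all 11 genes below Bulk in all 3. Importins had -0.65, -0.59 and -0.65 over the 16 tested, and exportins -0.62, -0.61 and -0.64 over 6. At 2-fold, 6, 7 and 7 of the 11 scaffold genes were lower in Claret, eGFP and Violet. The same counts were 3, 4 and 4 of the 16 importins and 1, 1 and 1 of the 6 exportins. Of all genes tested, 6.68%, 7.63% and 7.01% were lower at 2-fold, and 16.6%, 17.8% and 16.9% at 1.5-fold. At 1.5-fold, 9 scaffold genes were lower in each library, against 9, 8 and 9 importins and 4, 4 and 5 exportins. Within the scaffold, the inner ring had medians of -1.20, -1.24 and -1.35 and the Y complex -0.95, -0.92 and -1.003. These medians leave out Y complex genes outside the naming rule, which stayed closer to Bulk. AHCTF1 lay at -0.64, -0.67 and -0.56, SEH1L at -0.30 to -0.28, and SEC13 above Bulk at 0.08 to 0.43. The other pore genes chosen by name had medians of -0.77, -0.76 and -0.82. The basket genes among them, at -1.21, -1.22 and -1.13, lay past the Y complex. By summed FPKM, the scaffold stood at 43.6% to 45.9% of Bulk, importins at 49.98% to 51.1% and exportins at 78.9% to 80.1%. The exportin values leave out CSE1L, an exportin outside the naming rule, with log2 ratios of -1.52, -1.72 and -1.66. Its FPKM was 101.1 in Bulk and 30.1 to 34.8 in the slow-cycling libraries. The exportin percentages therefore hold only for the exportins chosen by name. The most lowered genes chosen by name in the other classes, KPNA2 and XPO1, lay in the range of the scaffold or past it. The classes therefore overlapped gene by gene. The difference between classes was not tested, and these counts and medians describe it.

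**Figure D4:**
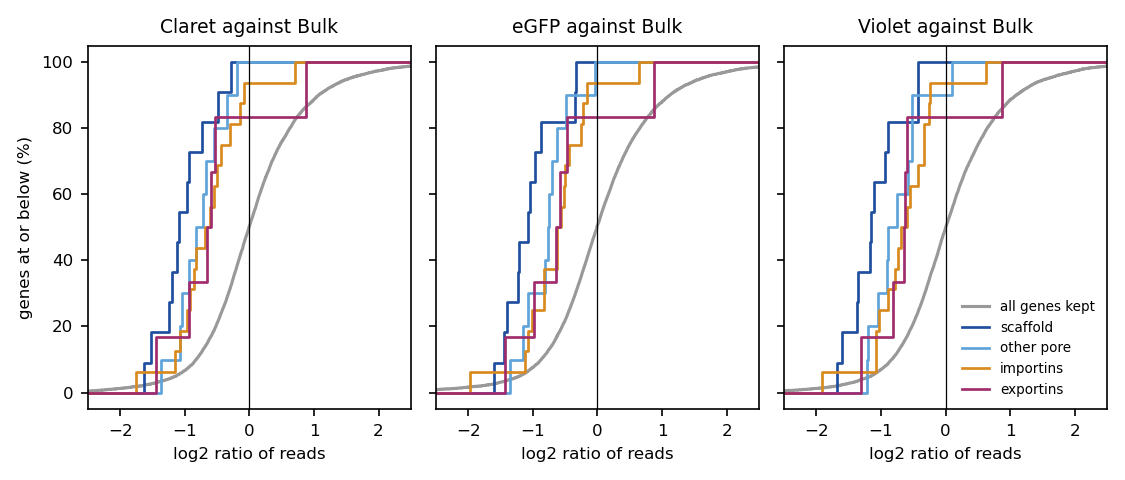
Percent of genes at or below each log2 ratio to Bulk (horizontal axis, cut at -2.5 and 2.5), for scaffold (11), other pore (10), importins (16), exportins (6) and all 14585 genes tested, in 1 panel per slow-cycling library. The scaffold curve reaches 100% left of 0 in all 3 panels, importins and exportins end right of 0 with KPNA5 and XPOT, and all genes are centred at 0.

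The 12 genes called lower at 2-fold in all 3 slow-cycling libraries were NUP85, NUP93, NUP155, NUP188, NUP205, NUP62, NUP50, NUP153, KPNA2, KPNB1, IPO9 and XPO1. They were 27.9% of the 43 tested, where 4.92% of all genes tested were lower in all 3. Of the 11 with a RefSeq window, 6 held CCAAT, 5 a CHR match, 3 the NRF1 motif, 1 an E2F match and 1 TGATGNAA. Of all 40 genes with a window, 20, 10, 7, 3 and 1 did, in the same order. These are counts of genes, while the shares given with the promoters are of windows. KPNA2, NUP205 and NUP93 held both CCAAT and a CHR match. So did NUP35, NUP37 and NUP98, which are not among the 12, and NUP37 was called at neither size.

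Among the slow-cycling libraries none of the 43 genes was called at 2-fold or 1.5-fold in any pair. Between Claret and eGFP, 0.761% of all genes were called at 2-fold and 1.77% at 1.5-fold, between Claret and Violet 0.816% and 1.94%, and between eGFP and Violet 1.01% and 2.33%. These shares are low, so 0 of 43 is near what they give. The widest spread was that of NUP35, whose log2 ratio of Claret to eGFP was 0.51 (0.18 to 0.84; adjusted p = 0.0197 by the exact binomial test). KPNA2 was higher in Claret than in eGFP by 0.22 (0.13 to 0.31; adjusted p = 3.17e-05, exact binomial test). XPOT and KPNB1 spread by 0.01 each over the 3 libraries, and the median spread was 0.14, beside 0.20 for all genes tested.

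Genes of the same machinery that the names leave out were read in the same way. Of 12 further pore genes, 1, 1 and 2 were lower at 2-fold in Claret, eGFP and Violet, and 5, 6 and 4 at 1.5-fold, with none higher. The 2-fold counts are near the background of 6.68%, 7.63% and 7.01% of all genes, while 16.6%, 17.8% and 16.9% were lower at 1.5-fold. NDC1, a membrane anchor of the pore, was the one lower in all 3, with 2325 reads in Bulk against 838, 739 and 779. GLE1, an mRNA export factor on the cytoplasmic face, passed 2-fold in Violet (-1.03). SEH1L and SEC13, which belong to the Y complex, were not called at either size, at -0.30 to -0.28 and at 0.08 to 0.43. AHCTF1, a further subunit of that complex, was lower at 1.5-fold in Claret and eGFP (-0.64 and -0.67) and not in Violet (-0.56). The further pore genes had a median of -0.53, -0.57 and -0.50.

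Of 12 genes of the Ran cycle and further transport factors, 3, 2 and 4 were lower at 2-fold in Claret, eGFP and Violet, 7, 7 and 9 at 1.5-fold, and none was higher. The shares of all genes lower were 6.68%, 7.63% and 7.01% at 2-fold and 16.6%, 17.8% and 16.9% at 1.5-fold. CSE1L, the exportin that returns importin alpha to the cytoplasm, had 5970 reads in Bulk against 2242, 1829 and 1892 (-1.52, -1.72 and -1.66). Like KPNA2, it was high in Bulk alone. RANBP1, which helps Ran hydrolyse GTP, had 3214, 1053, 920 and 820 reads (-1.71, -1.81 and -1.97). RAN itself had 9273, 5665, 4797 and 5016 reads and was lower at 1.5-fold in all 3 (-0.82, -0.96 and -0.89). RCC1, the exchange factor that loads Ran with GTP in the nucleus, passed 2-fold in Claret and Violet (-1.04 and -1.23), and RANGAP1, which activates its GTP hydrolysis in the cytoplasm, in Violet (-1.07).

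Of 13 genes of the lamina and inner nuclear membrane, 3 were lower at 2-fold in each library, 6, 6 and 5 at 1.5-fold, and 1 was higher at 1.5-fold. Beside these stand the same shares of all genes lower, and 19.8%, 20.5% and 20.4% higher at 1.5-fold. The B-type lamin LMNB1 had 3298 reads in Bulk against 675, 657 and 711 (-2.39, -2.33 and -2.21), and LMNB2 had 12149, 4195, 3674 and 3548. TMPO, which encodes the lamina-binding LAP2 proteins, had 5996, 1877, 1672 and 1762. LEMD2, an inner nuclear membrane protein, was the gene called higher at 1.5-fold, at 0.70, 0.68 and 0.65. LMNA, the gene of the A-type lamins, was not called (0.04, -0.0038 and 0.06, with 12555, 13898, 12615 and 13132 reads).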

How the data were processed

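The authors deposited whole-number read counts per gene for 4 libraries, not normalized per the file headers and values, and FPKM values of the same genes; per the submitters' processing notes, HISAT2 2.0.5 and featureCounts 1.5.0-p3 were used. Use of strand and of reads matching several genes is not given in the sources used here. Coordinates are GRCh38, 1-based, as in the deposited table.

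Genes with a mean of at least 1 CPM were kept (14585). Libraries were scaled by TMM (edgeR 4.0.16, R 4.3.3), and log2 ratios used a prior count of 2. With 1 library per group, a quasi-likelihood fit in edgeR leaves no residual degrees of freedom. Reads of 2 libraries were therefore compared by a two-sided exact conditional binomial test (scipy 1.17.1) with Benjamini-Hochberg adjustment over the 14585 genes. The code was run on simulated reads that held counting error only. Such reads cannot show how the test behaves under variation between cultures. Intervals are 95% Clopper-Pearson and, as the floor of 3 reads (0.177 to 0.193 CPM), cover counting error only. Reads are given for genes called at 2-fold against Bulk, importin alpha genes, KPNB1, the gene of highest mean FPKM in each role and that of widest spread between slow-cycling libraries, and other genes by ratio. Of the further genes, reads are given for those lower at 2-fold in all 3, and for RAN, CSE1L and LMNB1. LMNA, LEMD2, SEH1L, SEC13, AHCTF1, GLE1, TPR, RCC1 and RANGAP1 were named after their values were seen. The members, lists and motifs were chosen with earlier results of these data known. Alternatives were other scaling (DESeq2 1.42.0 among them), filters, prior count, FPKM, GC correction and the treatment field.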

Additional observations from a re-analysis of the deposited data

How the results depend on the processing

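The counts and medians kept their direction, and counts stayed within 1.5 times, under library-size scaling, DESeq2 size factors, a 10 CPM filter, a prior count of 0.5 and GC correction. On log2(FPKM + 1), which understates low genes, 1 gene in place of 2 was higher at 1.5-fold in each library. Without the filter, the importin median in Claret was -0.76. IPO5 fell below 2-fold in eGFP and Violet with GC correction (-0.94 and -0.97), as did NUP153 in Violet with library-size scaling (-0.998), and, on log2(FPKM + 1), IPO5 and NUP35 in eGFP (-0.996 and -0.96) and NUP93 in Claret and eGFP (-0.98 and -0.96). With DESeq2 size factors, 17 genes in place of 15 were lower at 2-fold in eGFP (8.12% of all genes), NUP43 (-1.002) among them. XPO4, at -0.98 in eGFP with TMM, lay nearer to 2-fold than NUP43 (-0.97). No paired analysis was possible because each group has 1 library and the labels carry no replicate numbers. For the same reason no library could be left out, and depth limits NUP62CL, NUP35 and the untested genes most.

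With groups from the treatment field, the library titled Violet is the control and the library titled Bulk is Claret. In Claret, 0 genes were then lower and 15 higher at 2-fold, against 11.3% and 7.01% of all genes. At 1.5-fold 2 were lower and 29 higher, against 20.4% and 16.9% of all genes. In eGFP and Violet, 0 were lower at 2-fold, 0 lower and 0 higher at 1.5-fold. Between Claret and eGFP and between Claret and Violet, 31 were called at 1.5-fold. These pairs set the library titled Bulk against those titled Claret and eGFP. With the titles, 16.6% and 17.8% of all genes were lower there than in Bulk at 1.5-fold, and 19.8% and 20.5% higher. Medians in Claret were 1.15 for scaffold, 0.65 for importins and 0.64 for exportins. They were 0.080, -0.0046 and -0.014 in eGFP and 0.096, -0.00046 and -0.0066 in Violet. Genes called at 2-fold with the titles took the opposite sign as follows, in eGFP and Violet with values near 0 for many. Others not called at 2-fold also changed sign in Claret, such as NUP160 (0.89), NUP35 (0.94) and KPNA3 (0.73). Ratios in Claret were 1.02 for IPO5, 1.07 for IPO9, 1.91 for KPNA2, 1.08 for KPNB1, 1.11 for NUP107, 1.05 for NUP153, 1.35 for NUP155, 1.68 for NUP188, 1.38 for NUP205, 1.17 for NUP43, 1.21 for NUP50, 1.20 for NUP62, 1.60 for NUP85, 1.15 for NUP93 and 1.31 for XPO1. In eGFP they were 0.098 for IPO5, 0.16 for KPNA2, 0.0042 for NUP153, 0.16 for NUP155, 0.045 for NUP188, 0.14 for NUP205, 0.21 for NUP35, 0.13 for NUP62, 0.080 for NUP85 and 0.065 for NUP93. In Violet they were 0.013 for IPO5, 0.0058 for KPNB1, 0.24 for NUP107, 0.070 for NUP188, 0.17 for NUP205, 0.20 for NUP43, 0.041 for NUP62, 0.15 for NUP85 and 0.096 for NUP93. These changes follow from the swapped libraries.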
